A study of Mus musculus with 23 samples.

Results

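The 10 genes described here make, conjugate and move bile acids in mouse liver, or restrain their synthesis: Cyp7a1, Cyp8b1, Cyp27a1, Cyp7b1, Hsd3b7, Slc27a5, Baat, Nr0b2, Slc10a1 and Abcb11. They were chosen by symbol, as the rows of a read count table of 54838 genes whose Ensembl IDs map to these names. All 10 were in the table, 9 had reads, and the same 9 were among the 11969 genes expressed well enough to test. RNA sequencing had been done on liver of C57BL/6J mice in 23 libraries of 6 groups. Mice of batch 2 were given a recombinant protein, EPDR1, FCN2 or FSTL3 (4 libraries each), or vehicle (4 libraries). Mice of batch 1 were given LBP (3 libraries) or vehicle (4 libraries). The proteins were given 3 times at 1-day intervals, 1 µg per g of body weight each time. EPDR1 is an ependymin-related secreted protein, FCN2 (ficolin-2) a complement-activating lectin, FSTL3 (follistatin-like 3) a binding protein that inhibits activins, and LBP the lipopolysaccharide-binding protein of plasma. The labels name no gene alteration and give neither age nor sex. Nor do they say that each library came from a different mouse, so the p-values below measure the spread between these libraries, which may in part be technical. What the labels call a batch covers the mice, their vehicle and their protein, so batch and everything that went with it cannot be told apart.

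Hepatocytes turn cholesterol into bile acids by a classical and an alternative route. In the classical route CYP7A1 catalyses the first, rate-limiting step and CYP8B1 adds the hydroxyl group that makes cholic acid. In the alternative route CYP27A1 starts on the side chain and CYP7B1 hydroxylates the resulting oxysterols. HSD3B7 acts in both, on the steroid ring, SLC27A5 activates bile acids to CoA esters and BAAT joins them to taurine or glycine. Bile acids returning from the gut enter hepatocytes through the sodium-dependent carrier SLC10A1 (NTCP) and leave into bile through the export pump ABCB11 (BSEP). Bile acids bound to the nuclear receptor FXR raise Nr0b2, which encodes the repressor SHP, and Abcb11. SHP and the gut hormone FGF15, acting through FGFR4 and its partner KLB, lower Cyp7a1 and Cyp8b1. Cyp7a1 is also known for a strong daily rhythm, in which the clock-driven factor DBP takes part.

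Levels are given as CPM (counts per 1000000 reads, with library sizes scaled by the trimmed mean of M-values), and differences as log2 fold change ± standard error from edgeR's quasi-likelihood test. A gene was called where its p, adjusted by Benjamini-Hochberg over all genes tested, was under 0.05. The libraries held between 773499 and 21892416 counted reads. All 10 hepatocyte markers had reads in all 23 libraries, and in 22 of them they took 8.46% to 12.4% of the reads. In LBP replicate 2 they took 2.68%, and Alb alone took 0.211% against 5.26% to 8.36% elsewhere. The hepatocyte markers did not all move with Alb. Against its vehicle, LBP had 1 of the 10 called higher and none lower (median log2 fold change -0.05), and the highest library of the LBP group had 22872 CPM of Apoa1 against at most 8108 in the other groups. Pancreatic acinar genes took 0.125% of that library and 0.0737% of LBP replicate 4, and at most 0.0110% of any other. Counts of called genes are given with and without LBP replicate 2, as are single values where leaving it out changed a call or a direction or moved the LBP difference. Other values are from all 23 libraries unless said otherwise. Clock genes also set the groups apart. For each library the median log2 level of 5 Bmal1 arm genes was subtracted from that of 12 Per and Dbp arm genes. This clock difference lay between 1.31 and 2.06 in the vehicle of batch 1 and between 2.06 and 2.32 after FSTL3. It lay between -2.59 and -0.99 in the vehicle of batch 2. After EPDR1 it lay between -2.45 and -0.90, and after FCN2 between -2.60 and -2.18. The FSTL3 libraries stood apart in other ways too. The small nuclear RNA Rn7sk stood at 5177 to 5654 CPM in all 4 of them, against 1.84 to 17 CPM in the other 19 libraries. Fold changes against vehicle rose with exon length (Spearman 0.458 across 11969 genes), and 17 acute phase genes took 1.78% to 1.97% of reads against 2.85% to 5.61% in the vehicle. What part these had in the results below, every FSTL3 difference included, was not tested, except where values with the exon-length trend removed are given.

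Hsd3b7 (chr7:127800604-127803802 of GRCm38, plus strand), the ring-modifying enzyme, was listed at 0 reads in all 23 libraries. This 0 cannot be read as absent expression. Overlaps were taken from a later release of the annotation than the one used for counting, and Hsd3b7 has 2769 exon bases in both. In that later release 99.2% of them lie in exons of other genes. These are Gm49388 on the same strand (1717 bases, also 0 reads) and 9430064I24Rik on the opposite strand (1729 bases, 79 reads in all). The recorded counting command had no option that assigns a read falling on more than 1 gene. No level or comparison of Hsd3b7 is given. Of the other 9 genes, in the same later release, Abcb11 shares 3.0% of its exon bases with other genes and the rest share none.

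The 9 measured genes differed widely in level, here compared as CPM per kilobase of exon (RPKM) in the vehicle of batch 2, n = 4. Slc27a5 was highest at 317 ± 10.8 (SD), followed by Baat at 264 ± 23.7, Slc10a1 at 238 ± 40.2, Cyp7b1 at 229 ± 70.4, Cyp27a1 at 200 ± 31.9, Abcb11 at 156 ± 23 and Cyp8b1 at 148 ± 14.9. Nr0b2, at 19.7 ± 3.40, and Cyp7a1, at 12.4 ± 2.89, were far lower. Among the 11969 genes tested Slc27a5 ranked 152 and Cyp7a1 ranked 2334. Slc27a5 stood clear of Baat, and Nr0b2 of both Cyp8b1 and Cyp7a1, with no overlap between libraries. The other neighbours in the order overlapped, so their order is not fixed by these libraries. The mRNA of the rate-limiting enzyme was thus the least abundant of the 9 in this group.

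**Figure D1:**
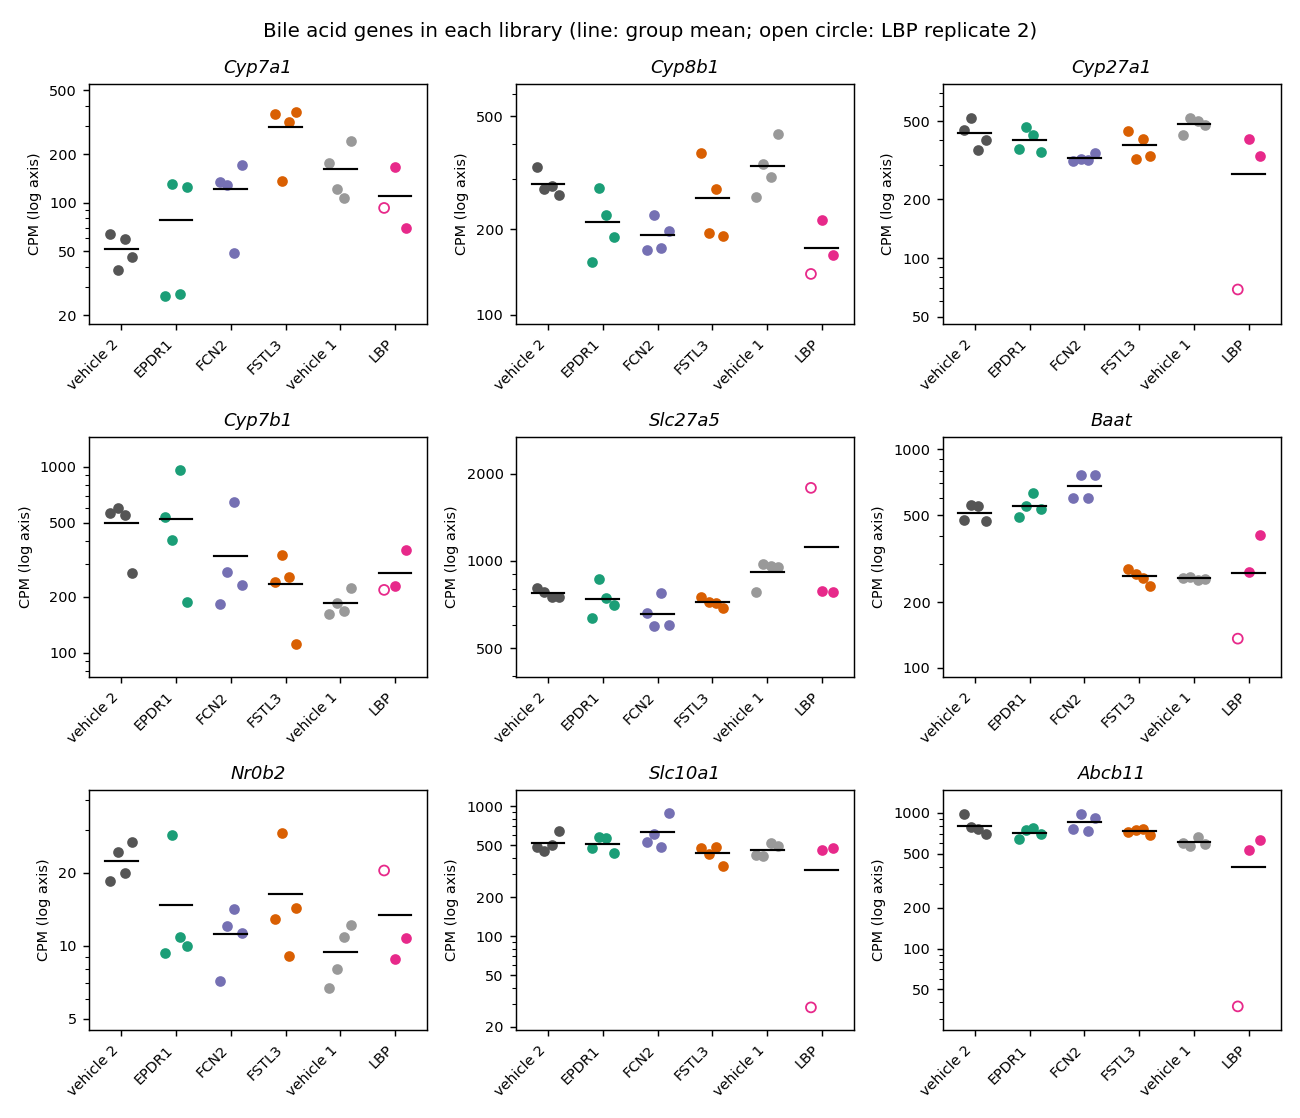
CPM of the 9 measured bile acid genes in each library (log axes, which differ between panels), by group, with vehicle 1 and vehicle 2 standing for the vehicles of batches 1 and 2. Points are libraries, lines are group means and the open circle is LBP replicate 2. The mean of Cyp7a1 was highest after FSTL3 (294 CPM) and lowest in the vehicle of batch 2 (51.9 CPM), with single libraries of other groups in between and EPDR1 replicates 1 and 3 below, while all FSTL3 and batch 1 vehicle libraries had less Baat than any library of vehicle 2, EPDR1 or FCN2.

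After FSTL3, 2 of the 9 genes were called against the vehicle of batch 2. Cyp7a1 rose 5.69-fold and Baat fell to 0.510 of its vehicle level. The share called among all genes was 39.2%, so a count of 2 in 9 is below the background. The groups did not overlap for these 2 genes alone, against 53.7% of all genes. Leaving out LBP replicate 2 gave the same 2 calls, with a background of 56.8%. Across the 9 genes the median log2 fold change was -0.20, against 0.06 over all genes.

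Between the vehicles, where no protein was given, 4 of the genes were called, in a comparison that shares the vehicle libraries of batch 2 with that of FSTL3. The vehicle of batch 1 had 3.13-fold more Cyp7a1 than that of batch 2, and 0.372 of its Cyp7b1, 0.500 of its Baat and 0.438 of its Nr0b2. These 4 of 9 compare with 12.2% of all genes called. Ranges did not overlap for 5 of the 9, those 4 and Abcb11, against 31.6% of all genes. When LBP replicate 2 was left out, Abcb11 was called lower as well, which made 5 of 9 against a background of 30.3%. The call for Baat held in every fit with 1 library left out. That for Cyp7a1 was lost without replicate 1 or 4 of the vehicle of batch 1 or without replicate 2, 3 or 4 of that of batch 2 (adjusted p up to 0.107). That for Cyp7b1 was lost without any of these vehicle libraries but replicate 4 of batch 2 (adjusted p up to 0.0921).

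For EPDR1 none of the 9 was called (0 by edgeR, 0 at an unadjusted p under 0.05, 0 by DESeq2 and 0 by limma-voom). No gene at all was called by edgeR in that comparison, so the background was 0%, with 493 of the 11969 genes at an unadjusted p under 0.05. With LBP replicate 2 left out, edgeR again called 0 genes, 1261 had an unadjusted p under 0.05, and DESeq2 and limma-voom called 29 and 2, none among the 9, of which Cyp8b1 had an unadjusted p under 0.05. Ranges of EPDR1 and vehicle overlapped for all 9 genes, against 4.23% of all genes without overlap. After FCN2 edgeR called 0 of the 9 with all libraries (background 0.810%), as did DESeq2 and limma-voom, while Cyp7a1, Cyp8b1 and Nr0b2 had an unadjusted p under 0.05. Once LBP replicate 2 was left out, Cyp8b1 and Cyp27a1 were called lower and Baat higher, 3 of 9 against a background of 18.9%. Ranges did not overlap for these 3 and Nr0b2, 4 of 9, against 18.6% of all genes. After LBP, Cyp8b1 was the only one of the 9 called, lower, against a background of 7.70%, and Cyp8b1 and Cyp27a1 were the 2 whose ranges did not overlap (10.9% of all genes). With replicate 2 left out, ranges did not overlap for 4 of the 9, those 2, Cyp7b1 and Baat (22.4% of all genes). In that fit edgeR, DESeq2 and limma-voom called none of the 9 (background 0.727%), while Cyp8b1, Cyp27a1 and Baat had an unadjusted p under 0.05.

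**Figure D2:**
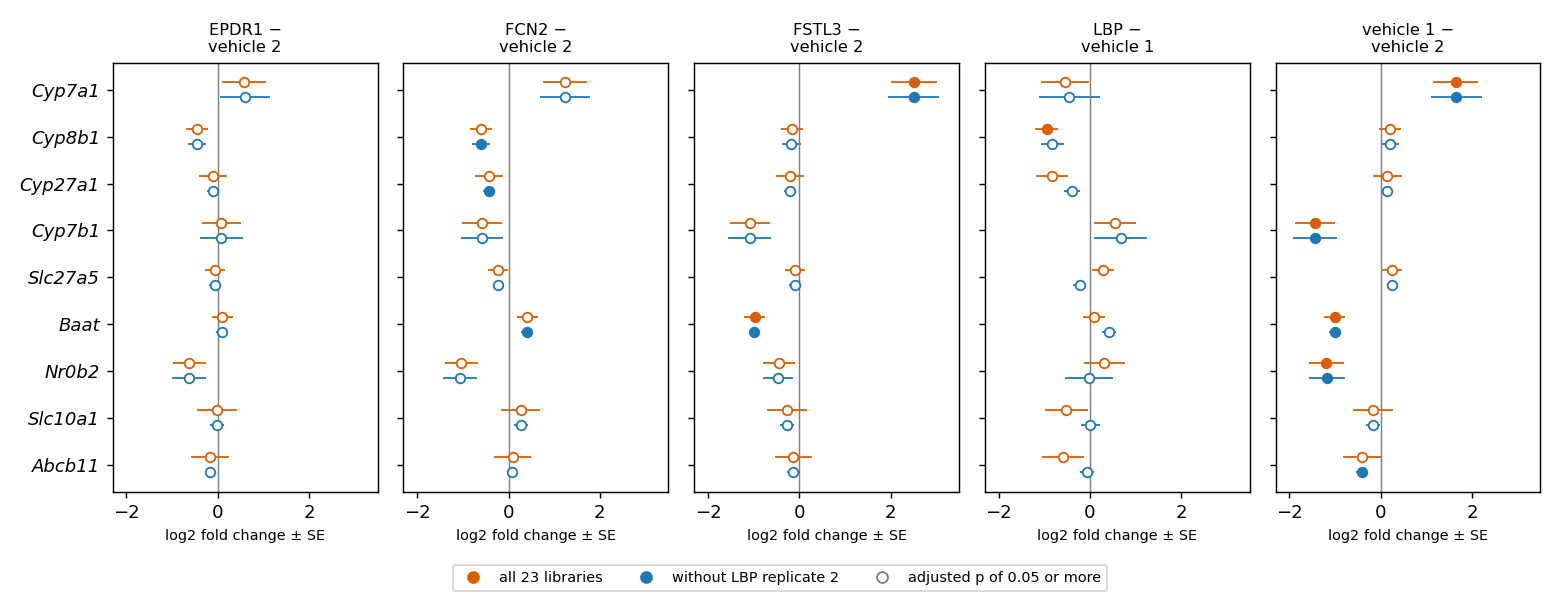
Log2 fold change ± SE of each gene in the 5 comparisons with a vehicle, with all 23 libraries (orange) and without LBP replicate 2 (blue). Filled points are called at an adjusted p under 0.05. Cyp7a1 was higher and Baat lower both after FSTL3 (2.51 and -0.97) and in the vehicle of batch 1 (1.64 and -1.0). Both comparisons share the vehicle libraries of batch 2. The error bars of Cyp27a1, Slc10a1 and Abcb11 narrow when LBP replicate 2 is left out.

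Of the classical route, Cyp7a1 (chr4:6265612-6275633, minus strand) stood at 64.0, 38.1, 59.8 and 45.8 CPM in the vehicle of batch 2. After FSTL3 it stood at 354, 136, 320 and 367 CPM. All 4 FSTL3 libraries lay above every vehicle library of the batch, with replicate 2 lowest of the 4. The log2 fold change was 2.51 ± 0.50 (adjusted p = 0.000397), and 2.51 ± 0.56 (adjusted p = 0.000984) without LBP replicate 2. With the exon-length trend removed it was 2.52 ± 0.51 (adjusted p = 0.000651).

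The vehicle of batch 1, given no protein, had 176, 122, 107 and 241 CPM of Cyp7a1. All 4 lay above the vehicle libraries of batch 2, and 2 of them lay within the range of the FSTL3 libraries and 2 below it. The vehicles differed by 1.64 ± 0.49 (adjusted p = 0.0302). Set against the vehicle of batch 1 in place of its own, FSTL3 differed by 0.86 ± 0.48 (adjusted p = 0.175), which was not called. Since the vehicle of batch 1 and the FSTL3 libraries had similar clock differences and the vehicle of batch 2 had not, a clock state and the protein cannot be told apart in the FSTL3 comparison.

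EPDR1 libraries split in Cyp7a1, with 26.5 and 27.2 CPM in replicates 1 and 3 and 131 and 126 CPM in replicates 2 and 4. The first pair lay below and the second above all vehicle libraries, and the mean difference was 0.58 ± 0.48 (adjusted p = 1). FCN2 libraries had 135, 129, 48.7 and 172 CPM. Of these, 3 lay above the vehicle and 1 within it, with a difference of 1.23 ± 0.48 (adjusted p = 0.193). LBP libraries, at 92.9, 168 and 69.9 CPM in replicates 2, 3 and 4, overlapped the vehicle of batch 1 and differed from it by -0.55 ± 0.52 (adjusted p = 0.593), and by -0.45 ± 0.66 (adjusted p = 0.83) without replicate 2.

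Cyp8b1 (chr9:121914356-121916305, minus strand), the enzyme that makes cholic acid, did not follow Cyp7a1. It stood at 330, 277, 284 and 263 CPM in the vehicle of batch 2 and at 371, 193, 278 and 189 CPM after FSTL3, with overlapping ranges and a difference of -0.16 ± 0.24 (adjusted p = 0.625). The vehicle of batch 1 had 260, 338, 306 and 434 CPM, 0.21 ± 0.24 from that of batch 2 (adjusted p = 0.617). After LBP it stood at 139, 215 and 162 CPM, below every vehicle library of batch 1. The LBP difference was -0.95 ± 0.26 (adjusted p = 0.0309). Leaving out LBP replicate 2, the library with 139 CPM and little Alb, it was -0.82 ± 0.26 (adjusted p = 0.123), and both remaining libraries still lay below the vehicle. The call was also lost without replicate 2, 3 or 4 of the vehicle, over a range of adjusted p from 0.00992 to 0.123 with 1 library left out. FCN2 libraries had 169, 225, 171 and 197 CPM, all below the vehicle of batch 2, with a difference of -0.60 ± 0.24 (adjusted p = 0.196, and 0.0419 without LBP replicate 2). EPDR1 libraries had 153, 279, 225 and 187 CPM and differed from the vehicle by -0.45 ± 0.24 (adjusted p = 1).

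In the alternative route, Cyp27a1 (chr1:74713574-74737892, plus strand) was called in no comparison with a vehicle with all 23 libraries. It stood at 453, 520, 358 and 404 CPM in the vehicle of batch 2, at 447, 323, 405 and 332 CPM after FSTL3 and at 360, 470, 428 and 350 CPM after EPDR1, all overlapping. FCN2 libraries, at 312, 320, 318 and 345 CPM, lay just below the vehicle and close together. The FCN2 difference was -0.42 ± 0.31 (adjusted p = 0.501), and -0.42 ± 0.13 (adjusted p = 0.0277) without LBP replicate 2. The vehicle of batch 1 had 427, 519, 502 and 481 CPM. LBP libraries had 69.1, 405 and 331 CPM, the first of them replicate 2. The LBP difference was -0.83 ± 0.34 (adjusted p = 0.137) with that library and -0.39 ± 0.17 (adjusted p = 0.279) without it.

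Cyp7b1 (chr3:18071950-18243338, minus strand), the oxysterol hydroxylase, often lay opposite to Cyp7a1. It stood at 567, 600, 549 and 270 CPM in the vehicle of batch 2 and at 162, 186, 168 and 224 CPM in that of batch 1. All batch 1 vehicle libraries were lower, by -1.43 ± 0.44 (adjusted p = 0.0347). FSTL3 libraries had 239, 336, 255 and 111 CPM, and replicate 2, with the least Cyp7a1 of the group, had the most Cyp7b1. Replicate 4, with the most Cyp7a1, had the least. The FSTL3 difference of -1.08 ± 0.43 missed the threshold (adjusted p = 0.051). DESeq2 called it (adjusted p = 0.0317), while with the exon-length trend removed it was -0.69 ± 0.43 (adjusted p = 0.256) and against the vehicle of batch 1 it was 0.35 ± 0.43 (adjusted p = 0.577).

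In Cyp7b1 the same pairs of EPDR1 libraries stood in the opposite order, though as a spread and not as 2 levels. Replicates 1 and 3, low in Cyp7a1, had 540 and 969 CPM, and replicates 2 and 4, high in Cyp7a1, had 404 and 187 CPM. The mean difference from vehicle was 0.08 ± 0.43 (adjusted p = 1). FCN2 libraries had 182, 272, 647 and 231 CPM, the highest in replicate 3, which had the least Cyp7a1. FCN2 differed from vehicle by -0.58 ± 0.43 (adjusted p = 0.508). LBP libraries had 218, 228 and 358 CPM and differed from their vehicle by 0.54 ± 0.46 (adjusted p = 0.544), and by 0.67 ± 0.57 (adjusted p = 0.663) without replicate 2.

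Within a library the 2 hydroxylases can be compared free of its size, as the log2 ratio of reads per kilobase. This is given as a description with no test. The exon-length trend of the FSTL3 libraries does not cancel in it, since Cyp7a1 has 4174 exon bases, Cyp7b1 2166 and Cyp8b1 1950. Cyp7a1 over Cyp7b1 lay between -4.92 and -3.51 in the vehicle of batch 2 and between -1.60 and -0.83 in that of batch 1. It ran from -2.25 to 0.78 after FSTL3, and only FSTL3 replicate 4 had more Cyp7a1 than Cyp7b1 per kilobase among the 23 libraries. After EPDR1 it was -5.29, -2.58, -6.10 and -1.51, the widest range of the 6 groups. After FCN2 it was -1.38, -2.02, -4.68 and -1.37, and in the LBP libraries it lay between -3.30 and -1.38. Cyp7a1 over Cyp8b1 averaged -3.60 ± 0.27 (SD, n = 4) in the vehicle of batch 2, -2.91 ± 1.17 after EPDR1, -1.88 ± 0.74 after FCN2 and -0.95 ± 0.62 after FSTL3. In batch 1 it averaged -2.20 ± 0.47 in the vehicle and -1.81 ± 0.45 (SD, n = 3) after LBP. The ranges of the vehicles, -3.96 to -3.35 in batch 2 and -2.61 to -1.66 in batch 1, did not overlap.

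**Figure D3:**
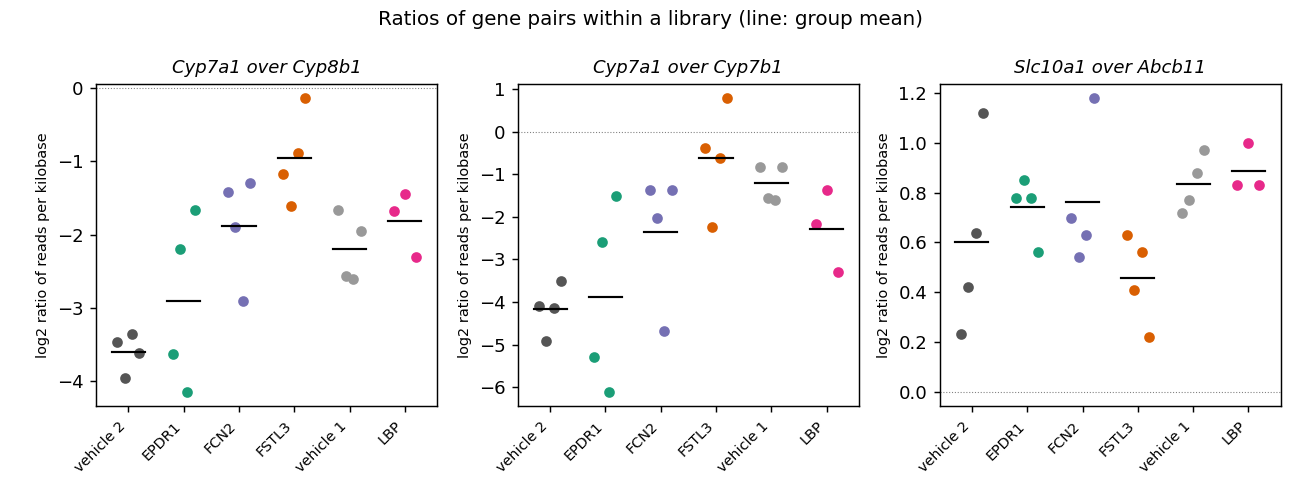
Log2 ratios of reads per kilobase for 3 gene pairs within each library, by group, with lines at the group means. Cyp7a1 over Cyp7b1 spans -6.10 to -1.51 among the EPDR1 libraries, and Slc10a1 over Abcb11 stays between 0.22 and 1.18 in all 23 libraries.

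Of the conjugation genes, Baat (chr4:49489422-49506557, minus strand), whose product joins bile acids to taurine or glycine, lay in narrow ranges in the vehicle of batch 1 and after FSTL3. It stood at 477, 556, 551 and 471 CPM in the vehicle of batch 2 and at 257, 260, 253 and 256 CPM in that of batch 1. The vehicles differed by -1.0 ± 0.23 (adjusted p = 0.00668), with no overlap. FSTL3 libraries had 283, 270, 259 and 236 CPM of Baat, all below their own vehicle and level with the vehicle of batch 1. The FSTL3 difference was -0.97 ± 0.23 (adjusted p = 0.00167) against the vehicle of batch 2 and 0.03 ± 0.23 (adjusted p = 0.942) against that of batch 1. With the exon-length trend removed, the FSTL3 difference was -0.51 ± 0.22 (adjusted p = 0.0886) and no longer called. That of the vehicles was -0.88 ± 0.22 (adjusted p = 0.014).

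FCN2 libraries had 601, 761, 601 and 762 CPM of Baat, all above the vehicle of their batch, with a difference of 0.41 ± 0.23 (adjusted p = 0.358, and 0.0255 without LBP replicate 2). EPDR1 libraries, at 492, 552, 634 and 531 CPM, overlapped it and differed by 0.10 ± 0.23 (adjusted p = 1). LBP libraries had 136, 275 and 406 CPM, and the lowest was replicate 2. The LBP difference was 0.09 ± 0.24 (adjusted p = 0.876) and, without that library, 0.41 ± 0.15 (adjusted p = 0.202).

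Slc27a5 (chr7:12988346-12998192, minus strand), the bile acid CoA ligase that acts just before BAAT, did not follow Baat. It stood at 806, 779, 753 and 750 CPM in the vehicle of batch 2, at 751, 724, 718 and 690 CPM after FSTL3, at 633, 864, 743 and 704 CPM after EPDR1 and at 659, 596, 777 and 600 CPM after FCN2, and each protein's range overlapped that of the vehicle. The differences were -0.10 ± 0.22 (adjusted p = 0.762) after FSTL3, -0.07 ± 0.22 (adjusted p = 1) after EPDR1 and -0.23 ± 0.22 (adjusted p = 0.629) after FCN2. The vehicle of batch 1 had 782, 972, 959 and 955 CPM, 0.25 ± 0.22 from that of batch 2 (adjusted p = 0.515). LBP replicate 2, with little Alb, had 1785 CPM, the highest of all 23 libraries, against 788 and 783 CPM in replicates 3 and 4. The LBP difference was 0.28 ± 0.24 (adjusted p = 0.536) with replicate 2 and -0.22 ± 0.14 (adjusted p = 0.522) without it, so its direction turned on that library.

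Nr0b2 (chr4:133553376-133556536, plus strand), which encodes the repressor SHP, and Abcb11 (chr2:69238282-69342616, minus strand), the export pump, are both known targets of FXR, and Nr0b2 represses Cyp7a1 and Cyp8b1. Promoter sequences were on hand for 6 of the 10 genes (7 promoters, RefSeq, GRCm38.p6). The 250 bases before the start are shown for the pair, to set known FXR and LRH-1 targets side by side, and for Cyp8b1, which SHP and LRH-1 are known to control. Capitals mark CACGTG (E-box) and TCAAGG (core of the site bound by LRH-1) in Nr0b2, and AGGNCA followed by any 1 base and TGACCT (an inverted repeat of the core bound by nuclear receptors) in Abcb11.
Nr0b2, chr4:133553126-133553375, plus strand: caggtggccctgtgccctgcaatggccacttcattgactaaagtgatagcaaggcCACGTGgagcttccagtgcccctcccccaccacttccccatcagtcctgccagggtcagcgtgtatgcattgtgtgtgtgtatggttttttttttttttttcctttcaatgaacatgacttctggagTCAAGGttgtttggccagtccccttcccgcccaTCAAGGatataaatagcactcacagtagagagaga
Abcb11, chr2:69342617-69342866, minus strand: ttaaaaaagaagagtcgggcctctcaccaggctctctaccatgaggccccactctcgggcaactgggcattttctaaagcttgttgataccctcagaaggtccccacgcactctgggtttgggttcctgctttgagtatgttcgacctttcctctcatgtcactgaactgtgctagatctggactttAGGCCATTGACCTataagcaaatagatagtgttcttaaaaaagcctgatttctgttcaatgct
Cyp8b1, chr9:121916306-121916555, minus strand: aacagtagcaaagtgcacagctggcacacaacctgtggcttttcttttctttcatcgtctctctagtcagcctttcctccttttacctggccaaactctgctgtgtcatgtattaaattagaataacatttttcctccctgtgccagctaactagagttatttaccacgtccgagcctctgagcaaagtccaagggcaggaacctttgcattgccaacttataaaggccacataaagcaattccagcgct
Motifs were searched as exact letters on both strands in all 7 promoters. CACGTG occurred only in Nr0b2, 195 to 190 bases before the start, and 6.02% of 32851 mouse promoters of that length hold it. TCAAGG occurred only in Nr0b2, 68 to 63 and 35 to 30 bases before the start (12.5% of promoters), and the inverted repeat only in Abcb11, 63 to 51 bases before it (0.0335%). These last 2 motifs were chosen after the sequences were seen. The letters CCAAGG, which differ from TCAAGG in the first base, stand in the Cyp8b1 sequence shown and were not searched for. The search therefore does not show that Cyp8b1 lacks a site for LRH-1. TTATGTAA (D-box, 0.819%), the same repeat with AGGTCA as its first part (0.00609%, a special case of the former) and AAGGTCA (4.08%) were in none of the 7, and a match or its lack is a description of letters, not of binding.

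Nr0b2 was scarce, with 7 to 535 reads per library. It stood at 18.4, 24.3, 19.9 and 26.7 CPM in the vehicle of batch 2 and at 6.72, 7.99, 10.9 and 12.2 CPM in that of batch 1. The ranges did not overlap, and the difference was -1.19 ± 0.38 (adjusted p = 0.0439). It was -0.90 ± 0.37 (adjusted p = 0.124) with the exon-length trend removed, and the call was lost when any 1 of the 8 vehicle libraries, FCN2 replicate 2 or 4 or FSTL3 replicate 4 was left out (adjusted p up to 0.13). FCN2 libraries, at 7.18, 12, 14.1 and 11.3 CPM, also lay below all vehicle libraries, with a difference of -1.03 ± 0.37 (adjusted p = 0.156, and 0.0553 without LBP replicate 2).

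EPDR1 libraries had 9.32, 10.9 and 9.99 CPM of Nr0b2 in replicates 1, 3 and 4, and 28.5 CPM in replicate 2. The EPDR1 difference was -0.62 ± 0.36 (adjusted p = 1). FSTL3 libraries had 12.9, 29.2, 9.04 and 14.3 CPM, and the highest was replicate 2, the library with the least Cyp7a1 of its group. FSTL3 differed from vehicle by -0.45 ± 0.35 (adjusted p = 0.319), and by -0.92 (adjusted p = 0.0403) without its replicate 2. LBP libraries had 20.4, 8.79 and 10.8 CPM and differed by 0.31 ± 0.45 (adjusted p = 0.748). The highest was replicate 2, and leaving it out gave -0.02 ± 0.52 (adjusted p = 1), so the direction rested on it.

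Neither transporter was called against a vehicle with all 23 libraries. Slc10a1 (chr12:80953183-80968705, minus strand), the uptake carrier, stood at 489, 449, 504 and 651 CPM in the vehicle of batch 2, at 475, 580, 569 and 438 CPM after EPDR1, at 530, 611, 490 and 891 CPM after FCN2 and at 481, 427, 482 and 346 CPM after FSTL3. The differences from vehicle were -0.02 ± 0.43, 0.27 ± 0.43 and -0.27 ± 0.43, none called (adjusted p = 1, 0.787 and 0.654). The vehicle of batch 1 had 425, 413, 521 and 496 CPM, -0.17 ± 0.43 from that of batch 2 (adjusted p = 0.852). Abcb11 stood at 975, 785, 758 and 703 CPM in the vehicle of batch 2, at 646, 753, 777 and 694 CPM after EPDR1, at 767, 986, 742 and 923 CPM after FCN2 and at 728, 751, 767 and 693 CPM after FSTL3, with differences of -0.17 ± 0.41, 0.09 ± 0.41 and -0.13 ± 0.41 (adjusted p = 1, 0.948 and 0.831). Abcb11 in the vehicle of batch 1, at 605, 566, 662 and 594 CPM, lay below every vehicle library of batch 2, with a difference of -0.41 ± 0.41 (adjusted p = 0.579) that was -0.41 ± 0.12 (adjusted p = 0.0126) without LBP replicate 2.

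In LBP replicate 2 both transporters were near the bottom of the scale, Slc10a1 at 28.3 CPM and Abcb11 at 37.4 CPM, while LBP replicates 3 and 4 had 459 and 476 CPM of Slc10a1 and 537 and 627 CPM of Abcb11. With all 3 LBP libraries the differences from vehicle were -0.52 ± 0.47 (adjusted p = 0.567) for Slc10a1 and -0.59 ± 0.45 (adjusted p = 0.482) for Abcb11. Leaving it out they were 0.01 ± 0.20 (adjusted p = 1) and -0.06 ± 0.15 (adjusted p = 0.918). Across the 9 genes that library was low in Slc10a1, Abcb11, Cyp27a1 and Baat, high in Slc27a5 and not apart in Cyp7a1 and Cyp7b1. It also had the least Cyp8b1 of the 23 libraries, at 139 CPM, and the most Nr0b2 of the LBP group, at 20.4 CPM. In bulk tissue, fewer cells of a type and less RNA per cell cannot be told apart. Slc10a1 over Abcb11, as a log2 ratio of reads per kilobase, averaged between 0.46 ± 0.18 (SD, FSTL3, n = 4) and 0.89 ± 0.10 (SD, LBP, n = 3) in the 6 groups, LBP replicate 2 included. Slc10a1 has 2199 exon bases and Abcb11 5146, so the exon-length trend of the FSTL3 libraries does not cancel in this ratio. With that trend removed, the FSTL3 differences from the vehicle of batch 2 were 0.12 for Slc10a1 and -0.25 for Abcb11.

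Proteins of batch 2 were also compared with each other, which leaves the vehicle out. FSTL3 libraries had more Cyp7a1 than EPDR1 libraries (1.93 ± 0.49, adjusted p = 0.00318) and less Cyp7b1 (-1.16 ± 0.43, adjusted p = 0.0348) and Baat (-1.08 ± 0.23, adjusted p = 0.000646). With only the libraries compared, the calls for Cyp7a1 (1.86 ± 0.68, adjusted p = 0.0524) and Cyp7b1 (-1.23 ± 0.56, adjusted p = 0.103) were lost. For Cyp7b1 the ranges overlapped. Its call was lost without EPDR1 replicate 3 (-0.68, adjusted p = 0.216), without EPDR1 replicate 1 or FSTL3 replicate 1, 3 or 4, and with the exon-length trend removed (-0.78, adjusted p = 0.181). The 3 of 9 genes called against EPDR1 compare with 42.0% of all genes. Against FCN2 libraries they had more Cyp7a1 (1.28 ± 0.48, adjusted p = 0.034) and less Baat (-1.38 ± 0.23, adjusted p = 4.85e-05), 2 of 9 against a background of 44.3%. For Cyp7a1 these ranges overlapped too, and the call was lost without FCN2 replicate 1, 2 or 3 or FSTL3 replicate 1, 3 or 4 (adjusted p up to 0.107). With LBP replicate 2 left out the calls against EPDR1 were the same 3 (background 58.6%), and against FCN2 Slc10a1 joined them, lower by -0.54 ± 0.16 (adjusted p = 0.00495, background 60.8%). Between FCN2 and EPDR1, edgeR, DESeq2 and limma-voom called none of the 9 (0 at an unadjusted p under 0.05, background 0%). Ranges did not overlap for Cyp27a1 alone, at 312 to 345 CPM after FCN2 and 350 to 470 CPM after EPDR1. The share of all genes without overlap is not given for this pair. In the fit without LBP replicate 2 all 3 tools again called none of the 9, Cyp27a1 and Baat had an unadjusted p under 0.05, and the background was 4.73%. Against the vehicle of batch 1, edgeR, DESeq2 and limma-voom called none of the 9 after FSTL3 (0 at an unadjusted p under 0.05), with a background of 31.9%. Without LBP replicate 2, Cyp27a1 (-0.36 ± 0.13, adjusted p = 0.0267) and Slc27a5 (-0.35 ± 0.12, adjusted p = 0.0141) were called lower there, against 49.9% of all genes.

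Cyp7a1, Cyp7b1 and Baat were set beside the clock difference of each library. Baat divided into 2 levels with it: the 12 libraries of vehicle 2, EPDR1 and FCN2, all with a clock difference below 0, had 471 to 762 CPM, and the 8 libraries of FSTL3 and vehicle 1, all above 0, had 236 to 283 CPM. LBP replicates 3 and 4, also above 0, had 275 and 406 CPM, and replicate 2, at -0.11, had 136 CPM. Cyp7a1 was 107 CPM or more in those 8 libraries, but the other 12 ranged from 26.5 to 172 CPM at similar clock values. Batch, protein and clock state are tied in these groups, and their parts cannot be told apart.

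**Figure D4:**
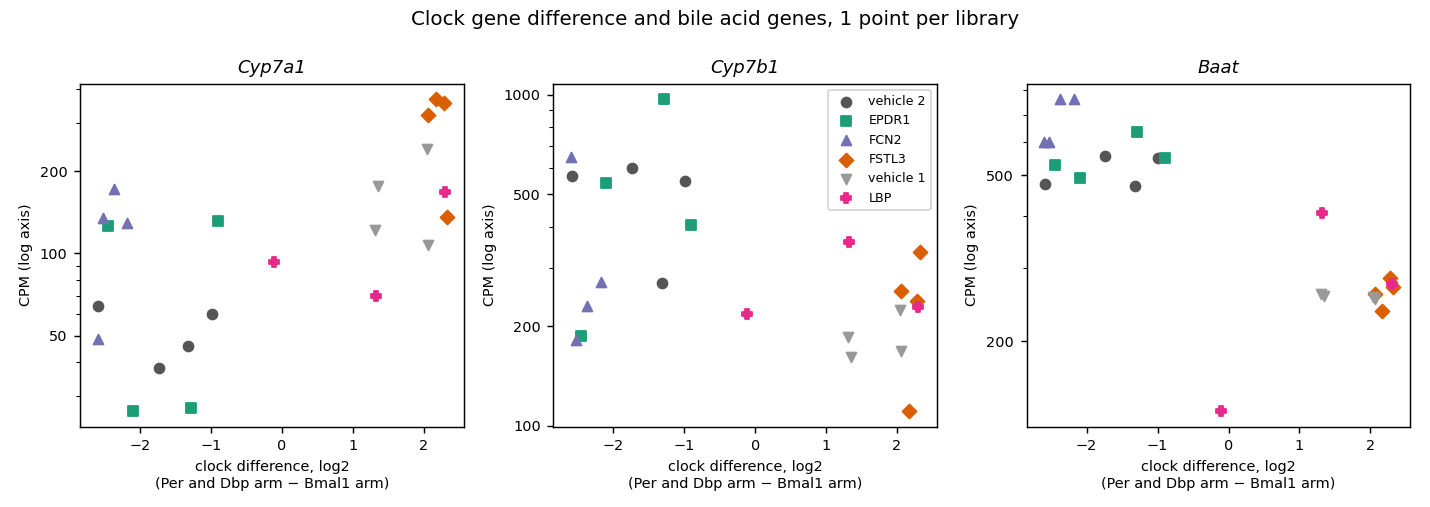
CPM (log axes) of Cyp7a1, Cyp7b1 and Baat against the clock difference, 1 point per library, with markers for the 6 groups. The clock difference is the median log2 level of 12 Per and Dbp arm genes minus that of 5 Bmal1 arm genes. Baat lies at 471 to 762 CPM in the libraries of vehicle 2, EPDR1 and FCN2 and at 236 to 283 CPM in those of FSTL3 and vehicle 1.

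The rest of the pathway was read from 4 lists: 20 further synthesis enzymes, 18 regulators, 19 further carriers of bile acids, organic anions and biliary lipids, and 9 detoxification genes. Of these 19, 16, 17 and 7 were tested. After EPDR1 edgeR, DESeq2 and limma-voom called none in any list, and 1 synthesis enzyme had an unadjusted p under 0.05. After FCN2 edgeR and limma-voom called none, while 1 enzyme, 6 regulators, 2 carriers and 1 detoxification gene had an unadjusted p under 0.05 and DESeq2 called 1, 4, 0 and 1. Without LBP replicate 2, edgeR called 2 enzymes higher and 2 lower after FCN2, 1 regulator higher and 5 lower, no carrier and 1 detoxification gene, higher. The share of all genes called in that fit was 18.9%. Of the 5 lower regulators, Rxra, the partner of FXR, differed by -0.66 ± 0.14 (adjusted p = 0.00258), against -0.66 ± 0.19 (adjusted p = 0.0779) with all 23 libraries.

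After FSTL3, 8 of 17 carriers were called, all higher, against the vehicle of batch 2, beside 39.2% of all genes called in either direction. Their median log2 fold change was 0.81 (0.06 over all genes). Slco1a4, a sinusoidal uptake carrier, rose from 41.8 ± 11.5 (SD) to 228 ± 105 CPM, by 2.45 ± 0.46 (adjusted p = 0.000215). Abcc3, which exports conjugates back to blood, rose from 155 ± 17.5 to 368 ± 41.6 CPM, by 1.25 ± 0.24 (adjusted p = 0.000228). Abcg8, part of the canalicular sterol pump, rose from 45.1 ± 7.35 to 104 ± 21 CPM, by 1.2 ± 0.29 (adjusted p = 0.0019). Abcb1a rose by 2.19 ± 0.48 (adjusted p = 0.000879) from a low 1.31 ± 0.342 CPM. With the exon-length trend removed, 8 were still called higher and 1, Abcg2, lower (-0.83, adjusted p = 0.0411). The median was then 0.49 (0.01 over all genes), and 27.1% of all genes were called. Without LBP replicate 2, 13 of 17 were called higher and none lower, beside 56.8% of all genes called.

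Of the 16 regulators, 3 were called higher and 1 lower after FSTL3 (4 and 2 without LBP replicate 2). These shares, and those of the enzymes and detoxification genes below, lie under the share of all genes called. That was 39.2%, and 56.8% without LBP replicate 2. Klb, the FGF15 co-receptor, rose from 18.9 ± 2.35 to 59.8 ± 3.81 CPM (1.66 ± 0.31, adjusted p = 0.000225), Ppargc1a, a coactivator of the fasting response, by 1.17 ± 0.29 (adjusted p = 0.00313) and Rxra by 0.53 ± 0.18 (adjusted p = 0.026), while Foxa2 fell by 0.95 on the log2 scale (adjusted p = 0.00266). With the exon-length trend removed, Klb and Ppargc1a were the 2 still called. Of the synthesis enzymes, 3 of 19 were called lower: Akr1c6, a ketosteroid reductase, by -1.15 ± 0.30 (adjusted p = 0.00437), Hsd17b10 by -0.97 ± 0.22 (adjusted p = 0.00109) and Fdx1, which feeds electrons to CYP27A1, by -0.66 ± 0.19 (adjusted p = 0.00809). In the fit without LBP replicate 2, 8 enzymes were called lower and 2 higher. None of the 3 was called once the exon-length trend was removed, and Acnat1 was then called higher (0.98, adjusted p = 0.00955). No detoxification gene was called by edgeR, DESeq2 or limma-voom, and 0 of 7 had an unadjusted p under 0.05, while 3 were called lower without LBP replicate 2 and 1 higher with the exon-length trend removed.

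Several of the same genes differed between the vehicles, a comparison that shares the batch 2 vehicle libraries with the FSTL3 one. In the vehicle of batch 1 there was more Abcc3 (361 ± 48.6 CPM, 1.22 ± 0.24, adjusted p = 0.00221), Abcg8 (93.8 ± 11.1 CPM, 1.06 ± 0.29, adjusted p = 0.0193) and Abcc6 (0.91 ± 0.27, adjusted p = 0.0286), which made 3 of 17 carriers higher and none lower, beside 12.2% of all genes called. Of the regulators, 5 of 16 were higher and none lower, among them Rxra (1.06 ± 0.19, adjusted p = 0.00109), Klb (39.7 ± 1.43 CPM, 1.07 ± 0.32, adjusted p = 0.0298) and the FGF15 receptor Fgfr4 (0.86 ± 0.27, adjusted p = 0.0377). Of the synthesis enzymes, Cyp2c70, which makes the muricholic acids of mice, was lower (223 ± 74.1 against 726 ± 144 CPM, -1.70 ± 0.48, adjusted p = 0.0238), as was Akr1c6 (979 ± 102 against 1971 ± 135 CPM, -1.01 ± 0.30, adjusted p = 0.0309). Cyp46a1 was higher by 2.05 ± 0.57 (adjusted p = 0.0211), at 3.08 ± 1.16 against 0.721 ± 0.603 CPM. No detoxification gene was called by edgeR or limma-voom, 1 was by DESeq2, and 2 had an unadjusted p under 0.05. With LBP replicate 2 left out, 5 carriers were higher and 2 lower, 7 regulators higher and none lower, 1 enzyme higher and 5 lower, and 1 detoxification gene higher and 3 lower. The share of all genes called in that fit was 30.3%.

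Set against the vehicle of batch 1, 2 of 17 carriers were called higher after FSTL3, Slco1a4 (1.77 ± 0.45, adjusted p = 0.00417) and Slc10a5 (0.83 ± 0.25, adjusted p = 0.0132), and none lower. Of all genes, 31.9% were called there. Of the regulators 2 were higher and 4 lower. Ppargc1a was again higher (1.21 ± 0.30, adjusted p = 0.00382) and Foxa2, Fgfr4 and Cebpa lower (-0.84 ± 0.24, -1.15 ± 0.26 and -1.06 ± 0.18, with adjusted p = 0.00991, 0.00172 and 6.82e-05). Rxra, higher than in the vehicle of batch 2, was lower than in that of batch 1 (-0.52 ± 0.18, adjusted p = 0.0331), so its direction turned with the control. Hsd17b10 and Fdx1 were lower as before, by -0.89 ± 0.22 (adjusted p = 0.00287) and -0.57 ± 0.19 (adjusted p = 0.0234). With LBP replicate 2 left out, 8 carriers were higher and 1 lower, 3 regulators higher and 8 lower, 3 enzymes higher and 4 lower, and 2 detoxification genes higher. Of all genes, 49.9% were called in that fit. After LBP, Abcc3 was lower (187 ± 56.2 against 361 ± 48.6 CPM, -0.94 ± 0.26, adjusted p = 0.0296) and Nr1h3, the oxysterol receptor, higher (200 ± 222 against 79.0 ± 6.00 CPM, 1.31 ± 0.41, adjusted p = 0.0495). Without LBP replicate 2 neither was called, and of all 4 lists edgeR and limma-voom called no gene, DESeq2 called 1 regulator, and 1 enzyme, 6 regulators and 2 carriers had an unadjusted p under 0.05. The share of all genes edgeR called after LBP was 7.70%, and 0.727% without replicate 2.

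**Figure D5:**
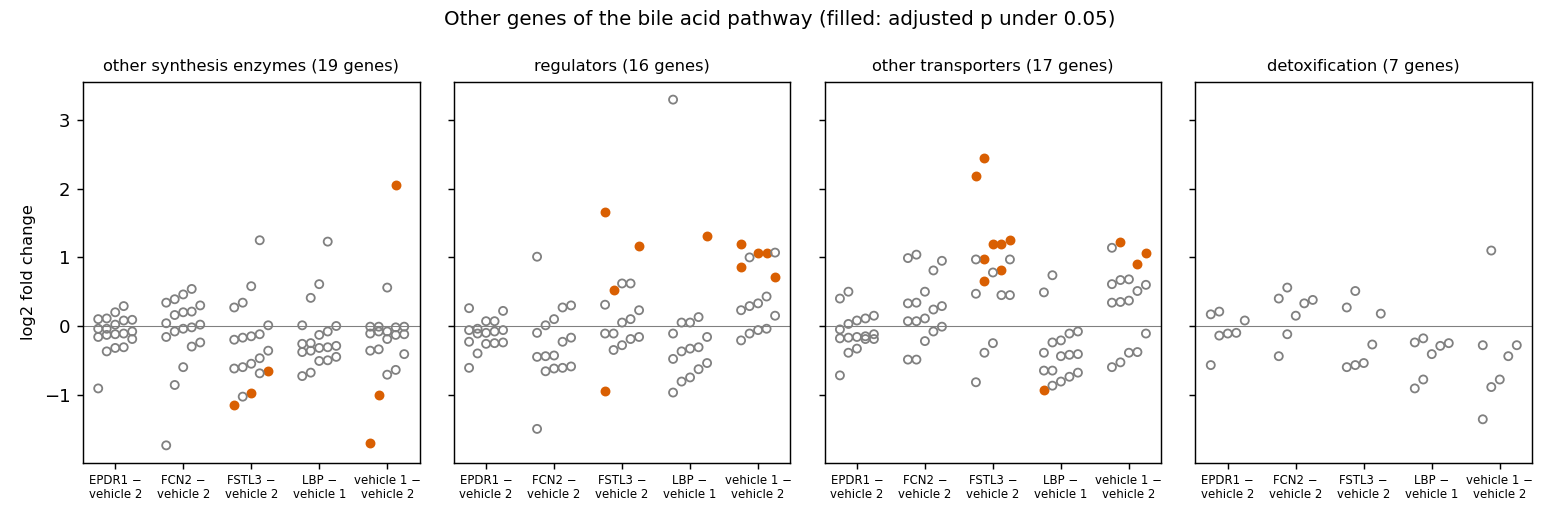
Log2 fold change of each tested gene of 4 further bile acid lists in the 5 comparisons with a vehicle, with all 23 libraries. Filled points are called at an adjusted p under 0.05. The carriers have 8 filled points of 17 above 0 after FSTL3, beside 39.2% of all genes called, and EPDR1 and FCN2 have none in any list.

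Among the genes whose levels ran most like Cyp7a1 were Ptpre, Abcd2, Syde2 and Ets1, with Pearson r of 0.83, 0.82, 0.80 and 0.80 over the 23 libraries in log2(CPM + 1), among 10785 genes. The libraries share groups, batches and depth, so this is a description. After each group's mean was taken out, r was 0.66, 0.68, 0.60 and 0.52. Abcd2, a peroxisomal fatty acyl transporter, averaged 5.18 CPM in the vehicle of batch 2 and 42.1 CPM after FSTL3. At the other end, Cyp7b1 had r = -0.77 with Cyp7a1, rank 10767 of 10785, and -0.66 within groups. Cyp8b1 had 0.27, and 0.48 within groups, and Baat had -0.47, and -0.02 within groups.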

How the data were processed

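The authors deposited raw read counts per gene for 23 mouse liver libraries. Per the submitters' processing notes, STAR 2.6.0c aligned the reads to GRCm38. Per the file headers, featureCounts 1.6.3 tallied them by exon against Ensembl release 95, and its command held no strand, pairing or overlap option. By the program's defaults reads were then counted without strand and those over several genes left out. Symbols were matched to 54723 of 54838 gene IDs.

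Low genes were removed with filterByExpr, libraries were scaled by TMM, and edgeR 4.0.16 (R 4.3.3) fitted 1 mean per group over all 23 libraries. Leaving out LBP replicate 2 (12244 genes) lowered the common dispersion from 0.0774 to 0.0298. Total counts had a median of 3712802. Replicates differed beyond sampling noise (lowest chi-square per degree of freedom 2.27 over 33 pairs). DESeq2 1.42.0, limma 3.58.1 (voom) and other filters, scalings, controls and left-out libraries were tried. The exon-length offset removes each library's trend of counts with exon length. The fitting code was tested on simulated data.

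The genes, lists and tests were chosen with earlier results of these data known. Named beside the 10 genes are up to 4 called genes of each list with the largest change per comparison, and the 5 genes most like Cyp7a1. Of the genes this rule names, 2 are not reported here. Genes of the acute phase and marker lists are given as counts or summed levels, with Alb and Apoa1 also given singly. Genes of the clock lists are given as a difference of medians. RPKM are CPM divided by exon length in kilobases.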

Additional observations from a re-analysis of the deposited data

Results flagged for a closer look

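In each group of 4 libraries the gap between the outermost library and its nearest neighbour was set against the group's range, for the 9 measured genes (45 sets). In 3 of them the gap exceeded Dixon's 95% critical value, where chance flags about 1 set in 20. Cyp7b1, the oxysterol hydroxylase, stood at 270 CPM in replicate 4 of the vehicle of batch 2, with the other libraries at 549 to 600 CPM. Nr0b2, which encodes SHP, stood at 28.5 CPM in EPDR1 replicate 2, with the others at 9.32 to 10.9 CPM. Slc27a5, the bile acid CoA ligase, stood at 782 CPM in replicate 1 of the vehicle of batch 1, with the others at 955 to 972 CPM.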

How the results depend on the processing

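Cyp7a1 after FSTL3 was called in every leave-one-out fit (2.38 to 2.72) and under every setting except the vehicle of batch 1 as control (1.47 with pooled vehicles). Baat was called in every leave-one-out fit (-1.04 to -0.92), but not with pooled vehicles (-0.56, adjusted p = 0.111), with the trend removed or against the vehicle of batch 1. The count of called genes moved more. For FCN2 it was 0 to 3 over the left-out libraries, 3 with only the libraries compared and 2 with pooled vehicles. For FSTL3 it was 2 to 4 over the left-out libraries (4 without FSTL3 replicate 2), 4 with only the libraries compared, 1 with the exon-length trend removed, 1 with pooled vehicles and 0 against the vehicle of batch 1. For LBP it was 0 to 2 over the left-out libraries (2 without LBP replicate 3; 0 without LBP replicate 2 or replicates 2, 3 or 4 of the vehicle) and 0 with limma-voom, no filter or only the libraries compared. Between the vehicles it was 1 to 5 over the left-out libraries, 1 with no filter and 2 with the trend removed, and each of the 8 vehicle libraries lowered it to 1 or 2 when left out. For FSTL3 against EPDR1 it was 2 to 3 over the left-out libraries, 2 with limma-voom or no filter and 1 with only the libraries compared. For FSTL3 against FCN2 it was 1 to 3 over the left-out libraries (1 without FCN2 replicate 1, 2 or 3 or FSTL3 replicate 1, 3 or 4), 1 with no filter and 4 with the trend removed. The share called among all genes moved as well. Without LBP replicate 2 it went from 0.810% to 18.9% for FCN2 and from 39.2% to 56.8% for FSTL3. It went from 7.70% to 0.727% for LBP and from 12.2% to 30.3% between the vehicles. With the trend removed it was 27.1% for FSTL3 and 10.8% between the vehicles. Where that share is not given, as with the replicate block, the count is not a result about these genes. The causes were not tested.

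Among the 9 genes, the directions that turned belonged to genes not called, Baat after FSTL3 excepted. With the vehicle of batch 1 as control of FSTL3, Baat was 0.03, Cyp7b1 0.35, Nr0b2 0.74 and Abcb11 0.27. With the trend removed, Cyp8b1 was 0.29, Cyp27a1 0.19, Slc27a5 0.23, Nr0b2 0.27 and Slc10a1 0.12 after FSTL3. With pooled vehicles, Cyp7a1 was -0.46, Slc10a1 0.06 and Abcb11 0.02 after EPDR1, Abcb11 was 0.06 after FSTL3, and Cyp7a1 was 0.06, Cyp7b1 -0.35, Baat -0.49 and Nr0b2 -0.42 after LBP. With limma-voom, Cyp7b1 after EPDR1 was -0.08 and Baat after LBP -0.07. Over the left-out libraries, Cyp7b1 ran from -0.40 to 0.36 and Slc10a1 from -0.09 to 0.10 after EPDR1. After LBP Slc27a5 ran from -0.22 to 0.47, Baat from -0.33 to 0.41, Nr0b2 from -0.02 to 0.51 and Slc10a1 from -0.91 to 0.01.

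The replicate numbers were not taken to pair the libraries, since no comparison had a correlation over 0.1 in every pair of deviations (-0.03 to 0.23 for EPDR1, -0.15 to 0.21 for FCN2, 0.02 to 0.10 for FSTL3, -0.03 to 0.08 for LBP and -0.01 to 0.10 between the vehicles). As a hint from the data alone, 3 of 4 libraries were closest to their own number for EPDR1 and for FCN2, 1 of 4 for FSTL3 and between the vehicles, and 2 of 3 for LBP. With the replicate block, called genes numbered 0 for EPDR1, 0 for FCN2, 3 for FSTL3 (Cyp7b1 added, -1.09), 0 for LBP, 4 between the vehicles, 3 for FSTL3 against EPDR1, 2 for FSTL3 against FCN2 and 0 for FCN2 against EPDR1. Cyp7b1 and Slc10a1 after EPDR1 were then -0.01 and 0.01. Depth limits Nr0b2 most, with 7 to 535 reads per library.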
